A study of Mus musculus with 12 samples.

Results

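The voltage-gated sodium channel subunits described here are 7 genes of the 18558 in the count table, found by their NCBI gene numbers. They are the pore-forming alpha subunits Scn1a, Scn2a, Scn3a and Scn8a and the beta subunits Scn2b, Scn3b and Scn4b. No measured value was a criterion, but these genes were chosen with earlier results of these data known. RNA of the pyramidal layer of CA1 in the dorsal hippocampus, cut out by laser microdissection from frozen brains, was sequenced in 12 libraries of male mice aged 3 to 6 months that had undergone no behavioural test. NEIL1 and NEIL2 are DNA glycosylases that start the repair of oxidized bases, and the question asked of each comparison was whether the transcripts of these channels differed in mice lacking either enzyme or both. The groups were 3 WT mice (C57Bl6, both genes intact), 2 Neil1-/- mice, 3 Neil2-/- mice and 2 Neil1-/-Neil2-/- mice, 1 library per mouse, all on a C57Bl6 background and otherwise untreated. No cell type-specific driver of the deletions is named, so they are taken to be present in every cell type. The 3 mutant lines were bred separately after backcrossing onto C57BL/6 N, with mice of that strain as WT, so that a difference between lines and an effect of the genotype cannot be told apart. In its DNA sequencing the paper describes regions with variants of another mouse strain that backcrossing had not fully removed. Variants in such regions were discarded from its mutation analysis. A further 2 libraries, whose title names one mutant line and whose genotype label names the other, entered no group. Both names are of lines lacking NEIL1, and they differ in NEIL2. The paper left 2 outlier libraries out of its comparisons, which used 2 Neil1-/- and 2 Neil1-/-Neil2-/- mice. The text available here does not name those outliers, so whether any of them is in the groups used here is not known.

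Grouped libraries held 19618923 to 21970180 estimated counts each. CPM below are counts per 1000000, scaled by TMM (trimmed mean of M-values) factors. The 10 markers of CA1 pyramidal neurons summed to between 7151 and 8788 CPM in every grouped library. The 4 markers of the dentate gyrus and CA3 summed to 10.9 to 40.4 CPM. Markers of interneurons (1353 to 1675 CPM) and oligodendrocytes (493 to 1238 CPM) were also present. These sums are over different genes, so their sizes beside each other do not measure the purity of the tissue. In bulk RNA of this kind, fewer cells of a type and less RNA per cell cannot be told apart. Neil2 was at 0 counts, which allows up to 3, in each library lacking NEIL2 and at 5 to 10 counts in the others, too few for a firm check of the labels. The Neil1 count was 119 to 161 in the 4 libraries labelled as lacking NEIL1 and 61 to 95 in the other 6, a log2 difference of 0.86 ± 0.14 (SE) in edgeR's quasi-likelihood test (adjusted p = 0.0169). This call held in 14 of 17 alternatives and was lost without WT replicate 1, without Neil2-/- replicate 1 (adjusted p = 0.0548 and 0.0529) and without Neil1-/- replicate 1 and Neil1-/-Neil2-/- replicate 1 together (adjusted p = 0.085). A count over the whole gene does not show which exons the reads came from and is no check of this deletion, and genotypes below are those of the labels.

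A voltage-gated sodium channel consists of a large alpha subunit, which forms the pore and senses voltage, and of small beta subunits with a single membrane span and an immunoglobulin-like domain outside the cell. The channels cluster at the axon initial segment and at nodes of Ranvier, where the rising phase of the action potential begins. Beta subunits shift gating, promote delivery of alpha subunits to the surface and act as adhesion molecules. The products of Scn2b and Scn4b are linked to the alpha subunit by a disulfide bond, and that of Scn3b associates without one.

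The genes lie on 3 chromosomes (GRCm38). Scn3a (chr2:65457118-65567591, minus strand), Scn2a (chr2:65620764-65767447, plus strand) and Scn1a (chr2:66270781-66440837, minus strand) belong to a cluster of alpha subunit genes, and Scn8a is on chr15:100869863-101045938, plus strand. All 3 beta subunit genes are on the plus strand of chromosome 9, which also carries the targeted gene Neil1. Scn2b (chr9:45117876-45130070) ends 8553 bp before Scn4b (chr9:45138624-45154155) begins, both 12.0 Mb from Neil1, and Scn3b (chr9:40269216-40291618) is 16.9 Mb from it. GENCODE transcripts on the opposite strand overlap Scn1a (Gm13630), Scn3a (Gm13595), Scn2b (Gm10684) and Scn3b (Gm47266). The sources used here do not say whether counting used strand, so reads of these 4 genes and of their antisense partners cannot be told apart. Estimated counts of Scn8a, Scn3b and Scn4b were whole in 10 of 10 libraries, whereas those of Scn2b were whole in 2, Scn2a in 1 and Scn1a and Scn3a in 0, showing that the counting program divided some of their reads with other transcripts.

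Scn2b and Scn4b are neighbours transcribed in the same direction. With the loss of NEIL1, Scn2b was lower in edgeR's quasi-likelihood test (adjusted p = 0.00161), whereas Scn4b did not pass (adjusted p = 0.224). The 250 bases before each start are shown, from RefSeq (GRCm38.p6), 5′ to 3′ on the plus strand. Capitals mark a CCAAT motif, which is found here on the opposite strand as ATTGG.
Scn2b (chr9:45117626-45117875): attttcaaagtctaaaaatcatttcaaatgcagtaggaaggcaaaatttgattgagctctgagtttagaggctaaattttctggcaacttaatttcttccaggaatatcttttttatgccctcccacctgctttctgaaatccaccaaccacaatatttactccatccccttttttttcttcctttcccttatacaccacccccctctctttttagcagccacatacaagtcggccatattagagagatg
Scn4b (chr9:45138374-45138623): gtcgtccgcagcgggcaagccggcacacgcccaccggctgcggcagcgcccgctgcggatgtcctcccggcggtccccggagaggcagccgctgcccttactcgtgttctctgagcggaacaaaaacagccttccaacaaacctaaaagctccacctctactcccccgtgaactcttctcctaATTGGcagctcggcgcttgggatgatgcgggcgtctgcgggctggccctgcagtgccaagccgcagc
Windows before these starts differ in composition, and whether composition or motifs bear on the levels of either gene was not tested. The Scn2b window was 38.4% G and C with 1 CpG, and the Scn4b window 66% with 23 CpG, beside a median of 52.4% and 6 CpG over 32851 RefSeq windows of the same length. Motifs searched on both strands were the TATA box TATAAA, the CCAAT box, the GC box GGGCGG, the E-box CACGTG, the cAMP response element TGACGTCA and, overlapping it in part, the short motif GTGACG. Of these the Scn2b window held none and the Scn4b window held CCAAT, which is in 33.8% of all windows (TATAAA 12.4%, GGGCGG 32.7%, CACGTG 6.02%, TGACGTCA 1.55% and GTGACG 7.95%). Of the other members, Scn1a, Scn2a and Scn8a had an entry in the RefSeq table, with CCAAT in that of Scn1a and TATAAA in the second of those of Scn2a. No entry was found for Scn3a and Scn3b.

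**Figure D1:**
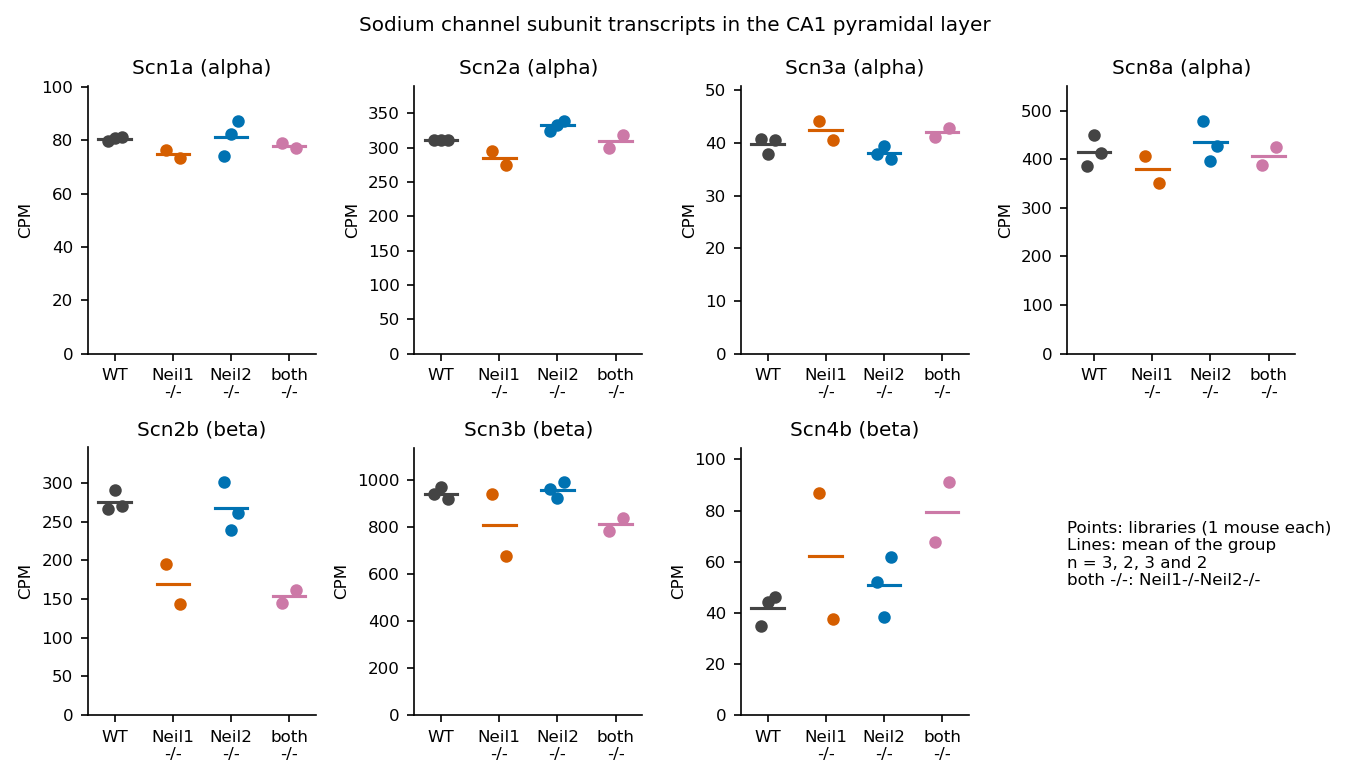
CPM (vertical axis, from 0) of the 7 subunit genes in each of the 10 grouped libraries, by genotype, with points for libraries and lines for group means. The 4 alpha subunits lie close together across genotypes, while Scn2b is at 144 to 195 CPM in the 4 libraries lacking NEIL1 and at 240 to 301 in the other 6.

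Among the 7 subunits, Scn2b stood apart. Its transcripts were lower in every library lacking NEIL1, by a log2 fold change of −0.75 ± 0.09 (SE) over both Neil2 backgrounds, and Scn2b was the 1 member called, lower, in that comparison and in Neil1-/-Neil2-/- mice against WT, where 0.2% and 0.136% of all genes were called lower. No member was called in Neil1-/- or Neil2-/- mice against WT, for the loss of NEIL2 over both Neil1 backgrounds or for the interaction. Over all genes tested, 0.2%, 0.3% and 0.322% were called in Neil1-/-, Neil2-/- and Neil1-/-Neil2-/- mice against WT, 0.336% for the loss of NEIL1, 1.49% for the loss of NEIL2 and 0.093% for the interaction. Called means an adjusted p under 0.05 in edgeR's quasi-likelihood test, Benjamini-Hochberg corrected across 13982 tested genes, all 7 members among them. The median log2 fold change of the members for the loss of NEIL1 was −0.11, beside 0.00 over all genes tested. The comparisons with WT share the 3 WT libraries. At an unadjusted p under 0.05, 1 of 7 members passed in Neil1-/- mice (8.98% of all genes), 0 in Neil2-/- mice (9.65%), 2 in Neil1-/-Neil2-/- mice (11.1%), 4 for the loss of NEIL1 (13.8%), 1 for the loss of NEIL2 (16.1%) and 0 for the interaction (5.52%). DESeq2 called Scn2b in Neil1-/- mice (0.615% of all genes called), in Neil1-/-Neil2-/- mice (1.33%) and for the loss of NEIL1 (1.72%), and 0 members in Neil2-/- mice (1.13%), for the loss of NEIL2 (4.79%) and for the interaction (0.215%). The calls of limma voom on the members were those of DESeq2, with 0.207%, 0.293%, 0.322%, 0.322%, 1.5% and 0.0858% of all genes called in the same order.

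Levels between genes were compared per kb of exonic length of the annotation. In WT mice Scn3b had the highest level, 173 ± 4.58 CPM per kb (SD, n = 3), followed by Scn2b at 59.2 ± 2.79 CPM per kb. Scn8a (26.4 ± 2.01 CPM per kb) and Scn2a (24.4 ± 0.0211) were nearly level, with ranges that were close but separate in WT and overlapped in each of the mutant groups. Scn4b (8.39 ± 1.19 CPM per kb) and Scn1a (7.22 ± 0.0762) overlapped in WT and Neil2-/- mice but not in the other groups, where Scn4b was the higher. Scn3a was lowest at 3.19 ± 0.123 CPM per kb. The mean levels kept this order in all 4 genotypes, also with Scn2b lowered to 36.4 ± 7.65 CPM per kb in Neil1-/- and 33 ± 2.57 in Neil1-/-Neil2-/- mice (SD, n = 2 each).

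The alpha subunits varied little. Scn8a encodes the main alpha subunit of initial segments and nodes in the adult brain. Its CPM were 386, 449 and 412 in WT, 407 and 352 in Neil1-/-, 479, 397 and 428 in Neil2-/- and 389 and 426 in Neil1-/-Neil2-/- mice, with overlap between all groups. Scn2a, which encodes the alpha subunit typical of excitatory neurons and their unmyelinated axons, was at 311 CPM in each WT library, at 295 and 274 in Neil1-/-, 325, 333 and 339 in Neil2-/- and 300 and 318 in Neil1-/-Neil2-/- mice. Against WT, Scn2a was called in neither Neil1-/- mice (log2 fold change −0.13, adjusted p = 0.578) nor Neil2-/- mice (0.09, adjusted p = 0.638). Scn1a, whose product is prominent in inhibitory interneurons and whose loss in humans causes Dravet syndrome, was at 79.6, 80.7 and 81.3 CPM in WT and 76.2 and 73.2 in Neil1-/- mice. Its CPM were 74.3, 82.4 and 87.3 in Neil2-/- and 79.1 and 77 in Neil1-/-Neil2-/- mice, a range of 1.19-fold over all 10 libraries. Scn3a, an alpha subunit mainly of the embryonic and newborn brain, was at 40.8, 38 and 40.6 CPM in WT, 44.2 and 40.6 in Neil1-/-, 37.9, 39.4 and 36.9 in Neil2-/- and 41.1 and 42.9 in Neil1-/-Neil2-/- mice, again within a narrow band.

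No alpha subunit was called in any of the 6 comparisons. For the loss of NEIL1 the log2 fold changes were −0.12 for Scn2a (95% interval −0.21 to −0.03, adjusted p = 0.271), −0.11 for Scn8a (−0.26 to 0.03), −0.08 for Scn1a (−0.20 to 0.03) and 0.12 for Scn3a (−0.00 to 0.24). For the loss of NEIL2 the log2 fold change of Scn2a was 0.10 (95% interval 0.02 to 0.19, adjusted p = 0.232), and those of the other alpha subunits lay between −0.04 and 0.08. Their intervals leave room for changes of up to 0.26 on the log2 scale for the loss of either enzyme.

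**Figure D2:**
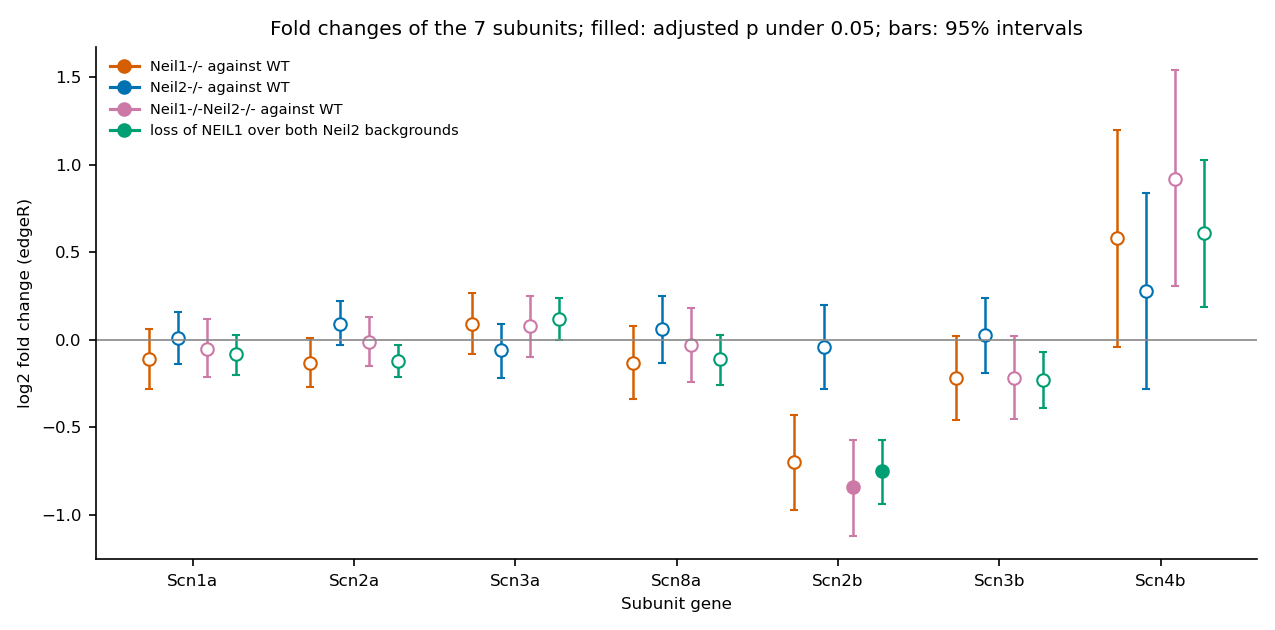
Log2 fold changes from edgeR (vertical axis) of the 7 subunits in each knockout against WT and for the loss of NEIL1 over both Neil2 backgrounds, with 95% intervals as bars and filled points where the adjusted p was under 0.05. Only the Scn2b points for Neil1-/-Neil2-/- mice (−0.84) and for the loss of NEIL1 (−0.75) are filled.

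Scn2b was at 267, 291 and 270 CPM in the WT libraries and at 301, 240 and 262 CPM in those of Neil2-/- mice. It was at 195 and 144 CPM in Neil1-/- and at 145 and 162 CPM in Neil1-/-Neil2-/- mice. All 4 libraries lacking NEIL1 were thus below all 6 with it, a separation that 2.35% of all tested genes showed, and among the members Scn2b alone. Means were 162 ± 23.5 CPM without NEIL1 (SD, n = 4) and 272 ± 21.6 CPM with it (n = 6), and the level without NEIL1 was 0.594 of that with it in the fit (adjusted p = 0.00161). Against WT the log2 fold change was −0.84 ± 0.13 (SE) in Neil1-/-Neil2-/- mice (adjusted p = 0.0119) and −0.70 ± 0.12 in Neil1-/- mice (adjusted p = 0.0516, just short of the threshold). In Neil2-/- mice it was −0.04 (95% interval −0.28 to 0.20, adjusted p = 0.948), and the interaction was −0.10 (−0.48 to 0.28, adjusted p = 0.975). Without Neil1-/-Neil2-/- replicate 1 the value of that genotype was no longer past the threshold (adjusted p = 0.212), whereas the loss of NEIL1 was called in each of the 17 alternatives run, between −0.85 and −0.68. In Neil1-/- mice 6 of 18 alternatives called Scn2b, among them those without Neil1-/- replicate 1, without Neil2-/- replicate 1 and with DESeq2.

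Scn4b encodes the beta subunit whose cytoplasmic tail has been linked to resurgent sodium current, and is known for high levels in the striatum and in cerebellar Purkinje cells. It was the most variable member, with a 2.6-fold range over the 10 libraries. Its CPM were 35, 44.3 and 46.1 in WT and 52.1, 38.4 and 62 in Neil2-/- mice. In Neil1-/- mice the 2 libraries disagreed at 87 and 37.7 CPM, and in Neil1-/-Neil2-/- mice they were at 67.7 and 91 CPM, above all other libraries except Neil1-/- replicate 1. The log2 fold change in Neil1-/-Neil2-/- mice was 0.92 ± 0.28 (SE, unadjusted p = 0.00665, adjusted p = 0.24), which did not pass over all genes. It was 0.58 ± 0.28 in Neil1-/- mice (adjusted p = 0.586) and turned to −0.15 without Neil1-/- replicate 1. For the loss of NEIL1 it was 0.61 ± 0.19 (adjusted p = 0.224), was called without Neil1-/- replicate 2 (0.81, adjusted p = 0.0424) and was 0.36 without Neil1-/- replicate 1 (adjusted p = 0.377).

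Markers of other brain regions went with Scn4b in some libraries and not in others. The summed level of 10 markers of striatum and thalamus, all of them in the table, was 68.7 to 81.4 CPM in WT, 139 and 91.6 in Neil1-/- replicates 1 and 2, 84.6 to 99.1 in Neil2-/- and 224 and 154 in Neil1-/-Neil2-/- replicates 1 and 2. None of these markers was at 0 in every library of a genotype. Against WT, 4 of the 10 were called higher in Neil1-/-Neil2-/- mice, where 26 of all 13982 genes were called higher. It was 1 of the 10 in Neil2-/- mice (23 of all genes) and 0 in Neil1-/- mice (16 of all genes). For the loss of NEIL1, 1 of the 10 was called higher (19 of all genes). In that comparison all 10 were above 0, with a median log2 fold change of 1.74. Each had an unadjusted p under 0.05 in edgeR's quasi-likelihood test, as did 13.8% of all genes. The 3 libraries with the highest sums were also the 3 with the highest Scn4b, and the 2 Neil1-/- libraries differed in both. Among those 3, however, Neil1-/-Neil2-/- replicate 1 had the highest sum (224 CPM) and the lowest Scn4b (67.7 CPM). Likewise Neil2-/- replicate 2 had the highest sum of its genotype (99.1 CPM) and the lowest Scn4b (38.4 CPM). Markers of oligodendrocytes were at 1238 CPM in Neil1-/-Neil2-/- replicate 1 and at 497 to 676 CPM in the other libraries lacking NEIL1, beside 510 to 602 CPM in WT. The same library, Neil1-/-Neil2-/- replicate 1, was also highest for markers of astrocytes (805 CPM, WT 484 to 592), oligodendrocyte precursors (67.4, WT 28.1 to 40.3) and choroid plexus and ependyma (295, WT 57.5 to 173). For the loss of NEIL1 all 8 oligodendrocyte markers were above 0 (median 0.43) with an unadjusted p under 0.05 in edgeR's test, and 0 were called. In Neil1-/- mice against WT, 5 of the 8 were above 0 and 0 had such a p. The part of these cells or regions in the values of Scn4b was not tested. For Scn2b, the lowest library, Neil1-/- replicate 2 (144 CPM), had a marker sum of 91.6 CPM, above the WT range of 68.7 to 81.4 and within that of Neil2-/- libraries. The part of other cells or regions in the values of Scn2b was not tested either. Without Neil1-/- replicate 1 and Neil1-/-Neil2-/- replicate 1 together, a choice made after the data were seen, the loss of NEIL1 was at −0.83 for Scn2b (adjusted p = 0.00154) and at 0.40 for Scn4b (adjusted p = 0.505).

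**Figure D3:**
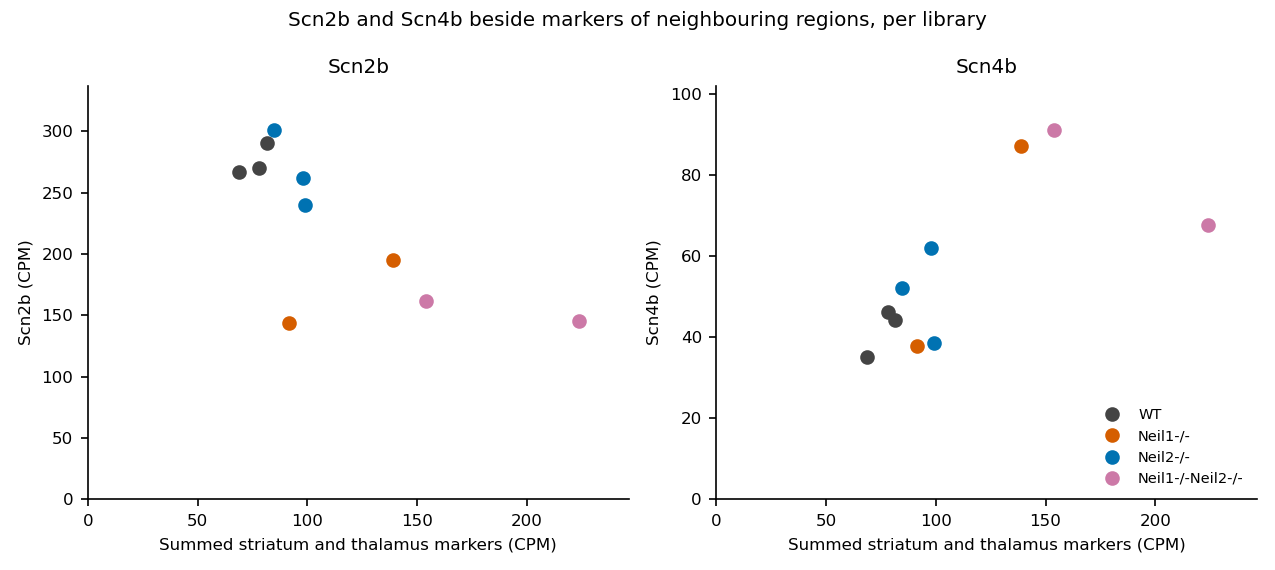
CPM of Scn2b (left) and Scn4b (right) against the summed CPM of 10 markers of striatum and thalamus, 1 point per library, coloured by genotype. Scn4b is highest in the libraries with sums of 139 to 224 CPM, and Scn2b is lower in all 4 libraries lacking NEIL1, whose sums are 91.6 to 224 CPM.

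Scn3b, the most abundant member, encodes a beta subunit that binds the alpha subunit without a disulfide bond. Its CPM were 940, 969 and 919 in WT, 964, 925 and 990 in Neil2-/-, 782 and 840 in Neil1-/-Neil2-/- and 940 and 677 in Neil1-/- mice. Of the 4 libraries lacking NEIL1, 3 were below every other library, and Neil1-/- replicate 1 was level with WT. The log2 fold change was −0.22 ± 0.11 (SE) in each of the genotypes lacking NEIL1 (adjusted p = 0.585 and 0.493) and −0.23 ± 0.07 for the loss of NEIL1 (95% interval −0.39 to −0.07, adjusted p = 0.226). The loss of NEIL1 was called without Neil1-/- replicate 1 (−0.33, adjusted p = 0.0328) and was −0.15 without Neil1-/- replicate 2 (adjusted p = 0.41), where the value of Neil1-/- mice turned to 0.01. In Neil2-/- mice it was 0.03 (−0.19 to 0.24).

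Counting members whose libraries did not overlap those of WT, there were 3 of 7 in Neil1-/- mice (Scn1a, Scn2a and Scn2b), where 26.5% of all genes did not overlap, and 5 of 7 in Neil1-/-Neil2-/- mice (all but Scn2a and Scn8a), beside 28.7% of all genes. With groups of 2 against 3, such separation is frequent and carries no test of its own. The interaction lay between −0.10 and 0.07 on the log2 scale for each member. For Scn4b its 95% interval was −0.81 to 0.95, and it ran from −0.42 (without Neil1-/- replicate 2) to 0.99 (without Neil1-/- replicate 1 and Neil1-/-Neil2-/- replicate 1 together), with 0.79 without Neil1-/- replicate 1 alone.

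Of the 8 other sodium channel genes on a list written from general knowledge, 3 passed the filter on low counts, and none was called in any comparison. Nalcn, the sodium leak channel, was between 0.09 and 0.19 in all comparisons except the interaction (−0.11). Scn9a, an alpha subunit mainly of peripheral neurons, was at 8.01 to 44.1 counts. The muscle gene Scn4a, the sensory neuron genes Scn10a and Scn11a, and Scn7a were not tested and did not exceed 8 counts in any library.

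The partners that anchor or regulate these channels gave no call. Of 23 such genes, all tested, none was called in any of the 6 comparisons, and their median log2 fold change lay between −0.02 and 0.04. Nfasc and Cntnap2, adhesion molecules of the initial segment, node and its flanks, were at −0.24 ± 0.11 (SE) and −0.22 ± 0.09 in Neil1-/- mice (adjusted p = 0.551 and 0.54). For the loss of NEIL1, Cntnap2 was at −0.15 ± 0.07 (adjusted p = 0.336) and Nrcam, another such molecule, at −0.14 ± 0.06 (adjusted p = 0.359). Sptbn4, the spectrin that ties channel clusters to the cytoskeleton, was at −0.22 ± 0.07 in Neil1-/-Neil2-/- mice (adjusted p = 0.268). In Neil2-/- mice Nedd4, a ubiquitin ligase, was at −0.16 ± 0.05 (adjusted p = 0.369), its relative Nedd4l, which removes sodium channels from the surface, at 0.19 ± 0.08 (adjusted p = 0.506) and the calmodulin gene Calm3 at 0.17 ± 0.06 (adjusted p = 0.397). For the loss of NEIL2 the smallest p-values were those of Nedd4 (−0.13 ± 0.04, adjusted p = 0.135), Sclt1 (−0.37 ± 0.13, adjusted p = 0.183), Cntnap1 (0.25 ± 0.09, adjusted p = 0.2) and Nedd4l (0.15 ± 0.06, adjusted p = 0.275). All 8 potassium channel genes of the initial segment and node were tested and none was called. For the loss of NEIL1 all 8 were below 0, as were 6833 of the 13982 genes tested, with a median of −0.12, while in Neil1-/-Neil2-/- mice against WT 5 of 8 were above 0 with a median of 0.01. The lowest for the loss of NEIL1 was Kcnab1 (−0.19 ± 0.08, adjusted p = 0.297), and Kcna2 was at 0.18 ± 0.08 for the loss of NEIL2 (adjusted p = 0.271).

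Other genes around Scn2b and Scn4b differed with NEIL1 as well. Of 15 tested genes starting within 500 kb of the Scn2b start, 3 were called in Neil1-/- mice, 3 in Neil1-/-Neil2-/- mice, 5 for the loss of NEIL1 and 0 in Neil2-/- mice. Fxyd2, a regulator of the sodium pump 282 kb away (chr9:45399709-45410278), was at 8.01 ± 1.43 CPM in WT (SD, n = 3), 31.2 ± 0.498 in Neil1-/- (n = 2), 8.33 ± 0.622 in Neil2-/- (n = 3) and 24.9 ± 3.82 in Neil1-/-Neil2-/- mice (n = 2), and rose by 1.77 ± 0.11 (SE) on the log2 scale with the loss of NEIL1 (adjusted p = 3.83e-06). Ift46 (chr9:44770456-44792714), a part of the intraflagellar transport machinery of cilia, rose by 0.87 ± 0.06 (adjusted p = 3.83e-06), and Phldb1 (chr9:44686308-44735248) by 0.65 ± 0.10 (adjusted p = 0.00816). Treh and Mpzl2 were called higher for the loss of NEIL1 at counts near 0: Treh had 9 to 11 counts in each library lacking NEIL1 and at most 1 in the others, and Mpzl2 17 to 54 counts against at most 3. Against WT, Mpzl2 in Neil1-/- mice and Treh in Neil1-/-Neil2-/- mice were each called in 5 of 18 alternatives. Folds of these 2 genes are not given, since the libraries with NEIL1 were at or under 3 counts. Called neighbours were higher, while Scn2b between them was lower. Near Scn3b, 3 genes within 500 kb were tested, and Clmp (chr9:40682123-40785553), an adhesion molecule 413 kb away, fell by 2.01 ± 0.19 (SE) on the log2 scale in Neil1-/- mice, from 25 ± 3.4 CPM in WT (SD, n = 3) to 6.21 ± 1.19 (n = 2). Over the 312 tested genes within 20 Mb of Neil1, 10.3% were called for the loss of NEIL1, 2.56% in Neil1-/- and 3.85% in Neil1-/-Neil2-/- mice, and none in Neil2-/- mice, beside the 0.336%, 0.2%, 0.322% and 0.3% of all genes. The position of Scn2b near the targeted gene and the loss of NEIL1 itself cannot be told apart in these lines. Whether sequence of another mouse strain remains around Scn2b, Scn3b or Scn4b was not tested.

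**Figure D4:**
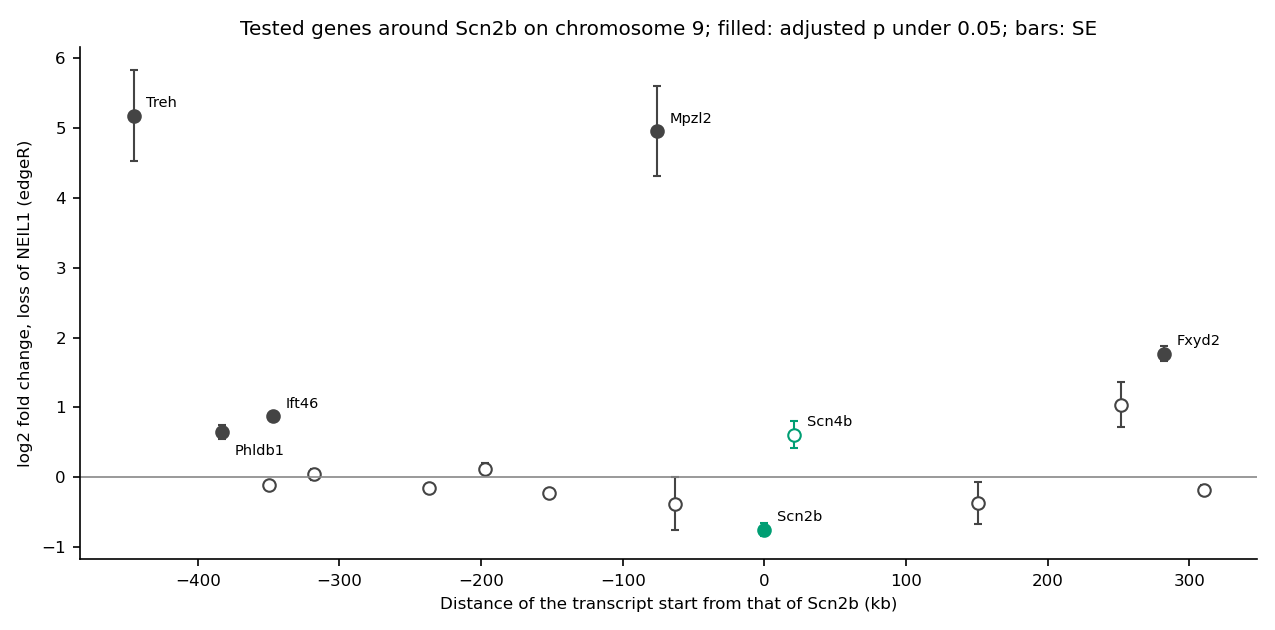
Log2 fold change for the loss of NEIL1 from edgeR (vertical axis, bars are SE) of the tested genes starting within 500 kb of Scn2b, against distance in kb, filled where the adjusted p was under 0.05 and green for Scn2b and Scn4b. The heights of Treh and Mpzl2 rest on counts near 0 in libraries with NEIL1 and on the prior count of the fit, Scn2b is the called gene below 0, and Scn4b is not filled.

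The genes whose log2 CPM followed each member most closely over the 10 libraries are given as a description. For Scn2b they were Chrna5 (Pearson r = 0.965, Spearman rho = 0.782) and Rnf214 (r = 0.962, rho = 0.903), both on chromosome 9, 2.2 and 11.3 Mb from Neil1. For Scn3b they were Kcnab1 (r = 0.971, rho = 0.927), itself on the potassium channel list, and the CA1 marker Ndst4 (r = 0.966, rho = 0.879). Scn4b was followed by Cdca8 (r = 0.928, rho = 0.867) and Arrdc2 (r = 0.894, rho = 0.915). Among alpha subunits, Scn8a was followed by Zmat3 (r = 0.974) and Dync1h1 (r = 0.971), Scn2a by Abi1 (r = 0.973) and Rb1 (r = 0.959), Scn1a by Denr (r = 0.910), and Scn3a by Fbxw11 (r = 0.897) and Ppm1a (r = 0.897). The points share genotype and, within a library, depth and tissue makeup, and each gene was the closest of 13982.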

How the data were processed

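RNA of laser-captured CA1 pyramidal layer was sequenced as paired reads at BGI. Values in the deposited table are estimated counts per gene, which the authors obtained from BGI (SOAPnuke is named for filtering, and the submitters' notes name HISAT, StringTie, GATK, Bowtie2, RSEM and GRCm38), with no versions. Of its values 87.8% are whole, and they were rounded here. Libraries were grouped by genotype label, and those of 1 genotype came from separate mice. Counts were tested with edgeR 4.0.16 in R 4.3.3 (minimum count of 10 in filterByExpr, TMM, glmQLFit with 1 mean per genotype, or additive terms for the loss of each enzyme, and glmQLFTest). 2-sided p-values were adjusted over all 13982 genes. All 6 comparisons were rerun under up to 18 alternatives, among them DESeq2 1.42.0, limma 3.58.1 voom and each library left out. The fit was tested on simulated data. Symbols were found for 18429 of 18558 gene numbers. Gene positions are from RefSeq, and strands, exonic lengths and overlapping transcripts are from GENCODE M21. Named are all members, called genes and up to 4 of the smallest p-values of each list, called genes within 500 kb of the chromosome 9 members, the targeted genes and the 2 genes most like each member. Members, lists, comparisons and alternatives were chosen with earlier results of these data known. Figures used matplotlib 3.10.9 in Python 3.11.15. Some genes that these rules name are not reported here.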

Additional observations from a re-analysis of the deposited data

Results flagged for a closer look

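In the 2 libraries outside every group, whose title and label both name lines lacking NEIL1, scaled together with the other 10, several members were above the 3 WT libraries. Scn4b was at 72.6 and 67.7 CPM (WT 35 to 46), Scn3a at 46.7 and 43.3 (WT 38 to 40.7) and Scn1a at 83.2 and 84.2 (WT 79.4 to 81.2). Scn2a was at 332 CPM in the second (WT 310 to 311) and at 310 in the first. Scn2b was at 188 and 166 CPM, below WT (266 to 290). These values are given per library and were not tested.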

How the results depend on the processing

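Over 42 combinations of member and comparison, 695 of 735 alternative values kept direction and side of the threshold, and 21 combinations did so in every alternative. No value that changed sign was past the threshold, and the largest was 0.42 in size. Without the filter on low counts, with DESeq2, with limma voom and without Neil1-/- replicate 1 and Neil1-/-Neil2-/- replicate 1 together, 1 member (Scn2b) was called in Neil1-/- mice, and with only the 2 groups compared 2 (Scn2b and Scn4b) in Neil1-/-Neil2-/- mice. Leaving out 1 library gave 0 to 1 members called in Neil1-/- mice, 0 to 1 in Neil1-/-Neil2-/- mice and 1 to 2 for the loss of NEIL1. Without those 2 libraries together, log2 fold changes turned to −0.15 for Scn4b in Neil1-/- mice, 0.03 for Scn2a and 0.04 for Scn8a in Neil1-/-Neil2-/- mice, 0.01 for Scn2b with the loss of NEIL2, and 0.21 for Scn2b and 0.29 for Scn3b in the interaction. Leaving out 1 library gave ranges across 0 in Neil1-/- mice for Scn3b (−0.47 to 0.01) and Scn4b (−0.15 to 1.07). The same held in Neil2-/- mice for Scn1a (−0.04 to 0.08), Scn8a (−0.01 to 0.13) and Scn2b (−0.13 to 0.03), in Neil1-/-Neil2-/- mice for Scn2a (−0.06 to 0.03) and Scn8a (−0.10 to 0.04), and with the loss of NEIL2 for Scn3b (−0.06 to 0.09). In the interaction the ranges were −0.02 to 0.10 for Scn1a, −0.04 to 0.07 for Scn2a, −0.02 to 0.11 for Scn3a, −0.07 to 0.14 for Scn8a, −0.31 to 0.13 for Scn2b, −0.25 to 0.23 for Scn3b and −0.42 to 0.79 for Scn4b. The cause was not tested.

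Replicate numbers did not pair the mice (r of same-numbered WT and Neil2-/- deviations −0.148 to 0.074). A replicate block left Scn2b called in Neil1-/-Neil2-/- mice (adjusted p = 0.0403) and for the loss of NEIL1 (adjusted p = 0.00938) and changed no call of a member, but ended those of the neighbours Phldb1 for the loss of NEIL1 (adjusted p = 0.065), Mpzl2 in Neil1-/- and Treh in Neil1-/-Neil2-/- mice, while genes called in Neil2-/- mice went from 42 to 18. Genes called over the whole table ranged, across alternatives, from 17 to 86 in Neil1-/-, 15 to 158 in Neil2-/- and 17 to 247 in Neil1-/-Neil2-/- mice, and from 28 to 241 and 69 to 630 for the loss of NEIL1 and of NEIL2 and 10 to 41 for the interaction. With DESeq2 they were 86, 158, 186, 241, 630 and 30, against 28, 42, 45, 47, 209 and 13, and without the filter 44, 64, 135, 106, 301 and 22. The lowest count of a member in a grouped library was 723 (Scn4b), and groups of 2 or 3 mice limit the precision of the tests. Where 1 of 2 libraries was left out, the other was assumed to vary like the other groups.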

Other observations

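The ratio of Scn2b to Scn4b CPM, chosen after their values were seen and given with no test, was 7.61, 6.56 and 5.87 in WT, 5.79, 6.26 and 4.23 in Neil2-/-, 2.24 and 3.83 in Neil1-/- and 2.15 and 1.78 in Neil1-/-Neil2-/- mice. In Neil1-/- replicate 1 Scn2b was at 195 CPM and Scn4b at 87 CPM, and in Neil1-/- replicate 2 they were at 144 and 37.7 CPM.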
